A study of Canis lupus familiaris with 29 samples.

Results

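PTGS2, also called COX-2, is the inducible prostaglandin synthase, and its messenger RNA was followed in dog kidney epithelial cells given hepatocyte growth factor (HGF) with and without inhibitors of the MEK kinase. PTGS2 was taken as every probe set whose platform annotation gives PTGS2 as the only gene symbol. The rule found 1 probe set, out of 42924 on the array that are no control, and it was among the 16571 that passed the filter on low values. A probe set is a group of short probes read together as the level of a transcript, so a single measurement stands for the gene on each array.

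PTGS2 carries out the committed step of prostaglandin synthesis: phospholipases such as PLA2G4A free arachidonic acid from membranes, PTGS1 or PTGS2 turns it into prostaglandin H2, and terminal synthases make the individual prostaglandins, which act on receptors such as PTGER2 and PTGER4. PTGS1 is the constitutive form, whereas PTGS2 is an early-response gene that growth factors and inflammatory signals switch on, through transcription factors that include NF-kB, AP-1 and CREB and through control of mRNA stability. In the inflammatory setting it is usually induced together with chemokines such as CXCL8 and CCL2, the attractants of neutrophils and monocytes. In the kidney PTGS2 is expressed in epithelial cells of the nephron and contributes to the control of renal blood flow and salt handling.

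The cells were of the MDCK line, an established line of polarising epithelial cells from dog kidney, described by the submitters as type II, and their total RNA was hybridised to 29 Affymetrix canine arrays. In 3D culture, in collagen, 3 arrays held cells given HGF and U0126, 3 held cells given HGF and PD-98059, 4 held cells given HGF alone and 4 held control cells with neither HGF nor inhibitor. In 2D culture, on transwell filters, the numbers were 3 for HGF with U0126, 4 for HGF with PD-98059, 4 for HGF alone and 4 for control. HGF is the ligand of the receptor MET, and U0126 and PD-98059 are MEK inhibitors of different chemical structure. No group received an inhibitor without HGF, so the effect of an inhibitor was read only in HGF-treated cells. The sources used here give neither doses nor times, so whether these matched between inhibitors or cultures is not known. Nothing in the labels says that arrays of a group came from separate cultures, so p-values measure only how far arrays of a group spread, in part perhaps technically. All cells were of 1 line.

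Values are log2 levels per probe set as deposited. A difference of 1 on this scale is a doubling. A mean level under log2 5 is called dim here, and a difference that starts or ends at a dim level rests on background signal. A gene rose or fell only where its adjusted p in limma, over all 16571 probe sets tested, was under 0.05. The number of arrays limits the precision of every value, and errors beside differences are standard errors from that model. Of the kidney epithelial markers 4 of 7 with a probe set (CDH16, EPCAM, KRT8 and KRT18) reached log2 5 in at least 3 arrays, and CDH1, PAX2 and PAX8 did not, with highest levels of 3.84, 2.78 and 3.58. Of the leukocyte, fibroblast and endothelial markers 1 of 6, 0 of 7 and 0 of 5 did. The 3D HGF arrays were the least alike, where the lowest r of a pair was 0.964, against at least 0.987 in every other group, and replicate 1 lay farthest from their mean. An RNA-quality index (the mean over ACTB, GAPDH and EEF1A1 of the 3′ control probe set minus the 5′ or middle one) ran between 0.798 and 2.46 over the arrays.

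PTGS2 was detected far above background in every 3D group, and in 2D its level depended on the treatment. In 3D the levels were 12.26, 11.75 and 12.21 on the 3 arrays with HGF and U0126, and 12.91, 12.84 and 13.05 with HGF and PD-98059. With HGF alone in 3D they were 12.16, 12.93, 13.05 and 12.60, against 11.02, 11.14, 11.11 and 11.27 in 3D control. All 3D control arrays were thus lower than any 3D array that received HGF. In 2D the levels were 8.80, 8.50 and 7.36 with HGF and U0126, and 9.0, 8.43, 8.72 and 9.07 with HGF and PD-98059. With HGF alone in 2D they were 12.16, 11.93, 12.20 and 12.29, against 6.59, 6.01, 6.10 and 6.83 in 2D control. In such bulk samples, fewer cells with the transcript and less transcript per cell cannot be told apart. The 2D arrays fell into 3 separate ranges, control lowest, both inhibitor groups between, and HGF alone highest. The highest probe set of each array lay between 15.9 and 16.6, above every PTGS2 value.

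**Figure D1:**
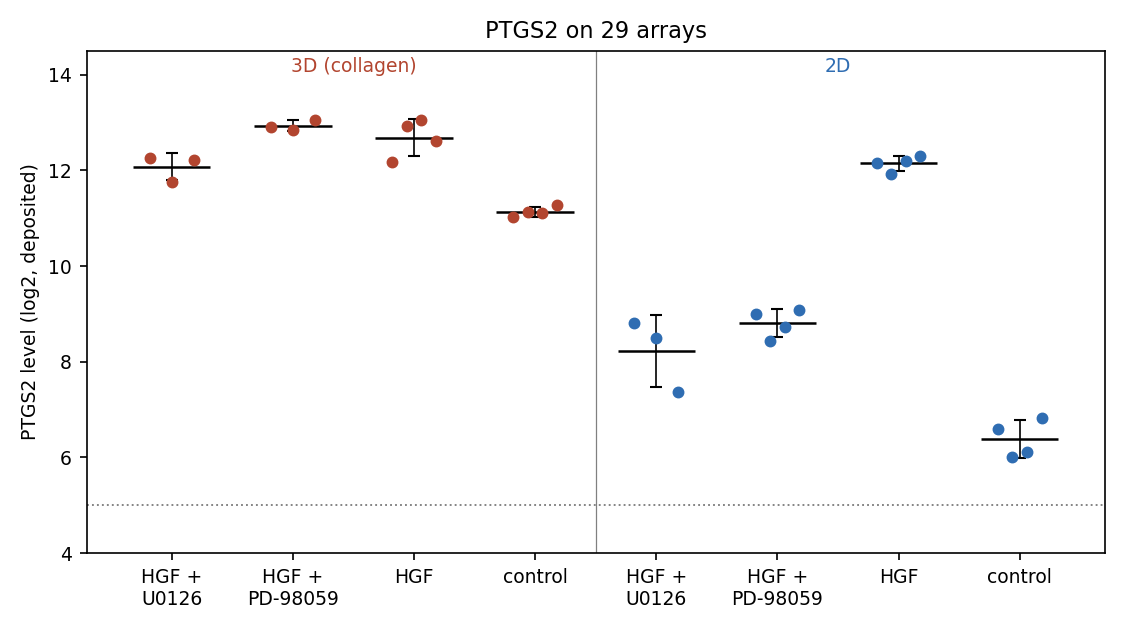
PTGS2 level (log2, deposited values, y axis) on each of the 29 arrays, with 1 point per array, in 3D (left, red) and 2D (right, blue). Horizontal bars are group means, error bars are ± SD, and the dotted line is log2 5; the 2D control arrays sit between 6.01 and 6.83, and all 3D arrays are at 11.02 or above.

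Ordered by mean, PTGS2 was highest in 3D with HGF and PD-98059, at 12.94 ± 0.11 (SD, n = 3). It was followed by HGF alone in 3D, at 12.69 ± 0.39 (SD, n = 4), by HGF alone in 2D, at 12.15 ± 0.16 (SD, n = 4), and by HGF with U0126 in 3D, at 12.07 ± 0.28 (SD, n = 3). Each of these overlapped the next in its arrays. The 3D control came after them, at 11.13 ± 0.10 (SD, n = 4), with no overlap. HGF with PD-98059 in 2D, at 8.81 ± 0.30 (SD, n = 4), and HGF with U0126 in 2D, at 8.22 ± 0.76 (SD, n = 3), overlapped each other and nothing else. The 2D control was lowest, at 6.38 ± 0.39 (SD, n = 4), and did not overlap any other group. The whole span of group means was 6.55 on the log2 scale.

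PTGS2 was higher in 3D than in 2D under each of the 4 treatments. Among untreated cells PTGS2 averaged 11.13 in 3D and 6.38 in 2D, a difference of 4.75 ± 0.23, or 26.9-fold, with adjusted p = 1.07e-14. Of all probe sets tested 23.6% were higher in 3D control than in 2D control, and 19 of 16571 exceeded PTGS2 in that difference. With HGF alone the averages were 12.69 in 3D and 12.15 in 2D, a difference of 0.54 ± 0.23 (adjusted p = 0.0453), and the arrays overlapped. Of all probe sets 28.9% were higher in 3D in that comparison. That small difference lost its call under several alternatives: adjusted p was 0.0589 without the filter, 0.098 after median centring, when the difference was 0.46, and 0.0557 with the numbers in the sample descriptions as a block. It also lost its call when 3D HGF replicate 2, 3 or 4 or 2D HGF replicate 1, 2 or 3 was left out. The difference was larger, 0.98, with the RNA-quality index as a covariate, and 0.84 without 3D HGF replicates 1 and 4. The culture difference was wide again under the inhibitors. It was 3.85 ± 0.27 with HGF and U0126 (adjusted p = 2.35e-11) and 4.13 ± 0.25 with HGF and PD-98059 (adjusted p = 7.68e-13), where 17.5% and 26.3% of all probe sets were higher in 3D.

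HGF raised PTGS2 in both cultures, by much more in 2D. In 3D it averaged 12.69 with HGF and 11.13 in control, a rise of 1.55 ± 0.23, or 2.93-fold (adjusted p = 2.3e-06). In 2D it averaged 12.15 with HGF and 6.38 in control, a rise of 5.76 ± 0.23, or 54.3-fold (adjusted p = 7.72e-17). In neither culture did the HGF and control arrays overlap. Among all probe sets 29.4% rose with HGF in 3D, of which 651 rose more than PTGS2, and 26.3% rose in 2D, of which 16 rose more. The HGF effect itself differed between cultures, by -4.21 ± 0.33 for 3D minus 2D (adjusted p = 1.2e-10). Of all probe sets 26.3% had a lower HGF effect in 3D than in 2D by the same test.

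Array quality and a leukocyte marker moved with these groups. The RNA-quality index averaged 1.68 ± 0.58 with HGF and 1.93 ± 0.24 in control in 3D (SD, n = 4 each). In 2D it averaged 0.838 ± 0.048 with HGF and 1.44 ± 0.10 in control (SD, n = 4 each). With this index as a covariate the rise of PTGS2 was 1.42 in 3D and 5.45 in 2D, and the difference between cultures was -4.03. Without 3D HGF replicates 1 and 4 the rise in 3D was 1.85 and the difference -3.91. CD68, a lysosomal protein of macrophages, averaged 5.77 with HGF and 2.78 in control in 2D. The summed log2 level of the 6 leukocyte markers ran from 19.2 to 21.3 over the 2D HGF arrays and from 17.2 to 17.6 over the 2D controls. In 3D the sums were alike, from 17.5 to 18.3 with HGF and from 17.4 to 18.1 in control. PTPRC, the pan-leukocyte antigen, was dim in all groups, with a highest level of 2.94 on any array, and CD14, CD3E, LYZ and ITGAM reached at most 3.53. The part of CD68-expressing cells in the 2D result was not tested.

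Both MEK inhibitors lowered PTGS2 strongly in HGF-treated 2D cells, and neither did so to a like extent in 3D. In 2D PTGS2 averaged 8.22 with HGF and U0126 and 12.15 with HGF alone, a fall of -3.92 ± 0.25 (adjusted p = 9.36e-13). With PD-98059 it averaged 8.81, against 12.15 with HGF alone, a fall of -3.34 ± 0.23 (adjusted p = 4.06e-12). No 2D array with an inhibitor reached any 2D array with HGF alone. Of all probe sets 24.3% fell with U0126 and 24.9% with PD-98059 in 2D, and 62 and 114 of them fell more than PTGS2. In 2D the RNA-quality index averaged 1.31 with HGF and U0126 and 1.36 with HGF and PD-98059, against 0.838 with HGF alone. CD68 averaged a dim 2.84 and 2.85 in these groups, against 5.77. Over the alternatives, this index as a covariate among them, PTGS2 fell by -3.98 to -3.67 with U0126 and -3.36 to -3.06 with PD-98059. The part of CD68-expressing cells in this fall was not tested.

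In 3D PTGS2 averaged 12.07 with HGF and U0126 and 12.69 with HGF alone, a difference of -0.61 ± 0.25 (adjusted p = 0.0456), and the arrays overlapped. In 3D 23.8% of all probe sets fell with U0126. The call was lost with an adjusted p of 0.104 without the filter, 0.0743 with only the compared groups in the model, 0.086 after a further quantile normalization and 0.0775 with the replicate number as a block. Without 3D HGF replicate 2, 3 or 4, or without U0126 replicate 2 or 3, it was lost too, with differences between -0.68 and -0.45 in those fits. Without 3D HGF replicates 1 and 4 together the difference was -0.91 (adjusted p = 0.00981). With PD-98059 PTGS2 averaged 12.94 in 3D, against 12.69 with HGF alone, a difference of 0.25 ± 0.25 that did not pass (adjusted p = 0.461, 95% interval -0.27 to 0.77). Without 3D HGF replicates 1 and 4 the sign of that PTGS2 difference turned, to -0.050 (adjusted p = 0.93). In 3D 15.4% of all probe sets fell and 26.6% rose with PD-98059.

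The inhibitor effects differed between cultures by test. The effect of U0126 in 3D minus its effect in 2D was 3.31 ± 0.36 (adjusted p = 5.93e-08), and that of PD-98059 was 3.59 ± 0.34 (adjusted p = 7.25e-09). A positive difference of this kind was called for 19.9% of all probe sets with U0126 and for 22% with PD-98059. In none of the inhibitor groups was PTGS2 as low as in the control of the same culture. In 3D the excess over control was 0.94 ± 0.25 with HGF and U0126 (adjusted p = 0.00513) and 1.80 ± 0.25 with HGF and PD-98059 (adjusted p = 2.61e-06), where 14.2% and 21.6% of all probe sets were higher. In 2D it was 1.84 ± 0.25 with HGF and U0126 (adjusted p = 6.33e-06) and 2.42 ± 0.23 with HGF and PD-98059 (adjusted p = 1.11e-08), where 8.45% and 12.5% were higher.

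The inhibitors were set against each other once in each culture, which makes 2 pairs, with p adjusted over all probe sets. In 3D PTGS2 was lower with U0126 than with PD-98059, by -0.86 ± 0.27 (adjusted p = 0.0362), and the arrays did not overlap. Of all probe sets 8.82% were lower with U0126 in that comparison. The call was lost without the filter (adjusted p = 0.1), after a further quantile normalization (0.0638) and median centring (0.051), with the description numbers as a block (0.0508), and when PD-98059 replicate 1, 2 or 3 or U0126 replicate 1 or 2 was left out, with differences between -0.96 and -0.70. In 2D the difference was -0.59 ± 0.25 with a 95% interval from -1.10 to -0.07, and it did not pass (adjusted p = 0.356). Of all probe sets 1.62% were called in either direction between the inhibitors in 2D.

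Most tested genes that commonly report ERK activity fell with both inhibitors in 3D as well as in 2D. Of the 8 tested genes of that list, out of 17 listed, all 8 rose with HGF in 3D and all 8 in 2D, where 29.4% and 26.3% of all probe sets rose. U0126 lowered all 8 in each culture, against 23.8% of all probe sets in 3D and 24.3% in 2D. PD-98059 lowered 7 of 8 in each, against 15.4% of all probe sets in 3D and 24.9% in 2D. In 3D IER3 averaged 9.49 with HGF and PD-98059, against 9.90 with HGF alone, and the arrays overlapped. The median change in 3D was -1.68 with U0126 and -1.05 with PD-98059, against -0.0005 and 0.05 over all probe sets. In 2D the medians were -1.83 and -2.0, against 0.02 and 0.03. EREG and EPHA2 reached log2 5 only on arrays with HGF alone and passed the filter only through these. Their rise with HGF and fall with inhibitors, which the counts and medians include, is therefore no independent support. DUSP6, a phosphatase that removes the activating phosphates of ERK, fell with U0126 in 3D by -1.08 ± 0.10 and in 2D by -0.72 ± 0.10. With PD-98059 it fell in 3D by -0.34 ± 0.10, a call that was lost with only the compared groups in the model (adjusted p = 0.0579), and in 2D its difference of -0.18 ± 0.09 did not pass. DUSP5, the nuclear ERK phosphatase, fell with U0126 by -2.65 ± 0.21 in 3D and -4.10 ± 0.21 in 2D, and with PD-98059 by -1.58 ± 0.21 and -3.49 ± 0.20. EREG, an EGF-receptor ligand, averaged 7.02 with HGF and a dim 3.02 in control in 3D, and a dim 3.13 with HGF and U0126. EPHA2, an ephrin receptor, rose with HGF by 2.76 ± 0.34 from a dim level in 3D. In 2D it rose by 2.27 ± 0.34 within dim levels. With U0126 it fell to dim levels, by -2.80 ± 0.37 in 3D and -2.27 ± 0.37 in 2D. DUSP5 averaged 7.27 with HGF and U0126 and 7.77 in control in 3D, DUSP6 averaged 12.63 and 12.89, and MYC 7.61 and 7.94. Above control on average were IER3, at 9.34 and 8.87, CCND1, at 11.52 and 11.35, and PHLDA1, at 5.66 and 5.45. The U0126 arrays of CCND1, PHLDA1 and DUSP6 overlapped those of control. EREG and EPHA2 were dim in both groups. On those 3 arrays with U0126 PTGS2 was at 11.75 or above, over every 3D control array. IER3 was at 9.05 or above there, also over every 3D control array, the highest of which was 9.04.

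The chemokines moved otherwise than PTGS2 when HGF was added in 3D. Of 31 chemokines listed 22 had a probe set and 7 were tested, and all 7 fell with HGF in 3D, where 32.6% of all probe sets fell. The median change of the 7 was -5.75, against -0.0025 over all probe sets. CXCL8, CXCL10 and CCL7 were dim with HGF and passed the filter only through 3D control or 3D inhibitor arrays. The count and median include them and are therefore no independent support for a fall. CCL2, CXCL16, CCL17 and CCL20 were not dim on average with HGF or in control in 3D. CXCL8 was at 3.40, 3.07, 3.09 and 3.05 with HGF and at 10.69, 11.38, 11.15 and 10.91 in control in 3D, a difference of -7.88 ± 0.17 that ends at a dim level. CXCL8 was therefore at background on every 3D HGF array, while PTGS2 was above its control on each of the same arrays. CCL2 was at 8.08, 8.09, 7.83 and 7.79 with HGF and at 13.72, 13.63, 13.58 and 13.85 in control in 3D, a fall of -5.75 ± 0.25. CCL7, a related monocyte attractant, fell by -6.02 ± 0.14 to a dim mean of 3.55 with HGF, against 9.58 in control. CXCL10, the interferon-induced attractant of T cells, fell by -5.89 ± 0.14 to a dim mean of 3.10, against 8.98. CXCL16, a membrane-bound chemokine, fell by -1.48 ± 0.11, and CCL17, a ligand of CCR4, by -1.42 ± 0.24. CCL20, a ligand of CCR6, had a difference of -0.40 ± 0.16 (adjusted p = 0.0364), a call lost without the filter (0.0675) and without 3D HGF replicate 1 or 3 or control replicate 2, 3 or 4. A further probe set of CCL20, which reached at most 6.15 on any array, changed by -2.57 (adjusted p = 3.19e-11 in limma).

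**Figure D2:**
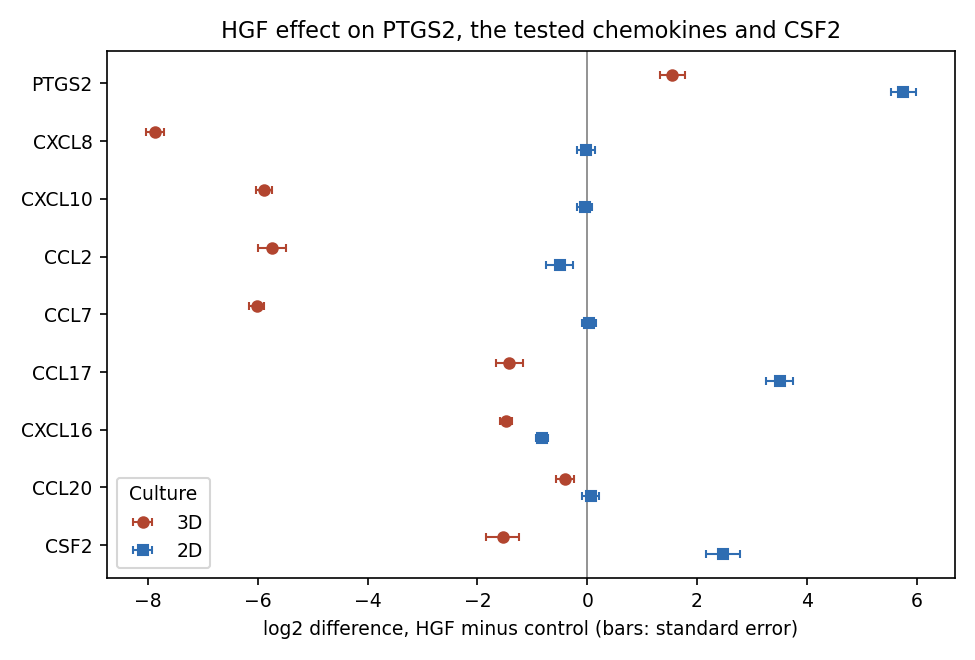
Log2 difference of HGF minus control (x axis) for PTGS2, the 7 tested chemokines and CSF2, in 3D (red circles) and 2D (blue squares), with bars of ± 1 standard error from limma. PTGS2 lies at 1.55 in 3D and 5.76 in 2D, whereas all 7 chemokines lie below 0 in 3D and CCL17, at 3.51, is the only 1 of them that rose in 2D.

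In 2D the chemokines gave little to compare. CXCL8, CXCL10, CCL2 and CCL7 were dim with HGF and in control, at means of 2.99, 3.03, 3.12 and 3.11 with HGF and 3.01, 3.08, 3.63 and 3.07 in control. Of the 7 tested, CCL17 rose, CXCL16 fell and 5 did not pass in 2D, where 26.3% of all probe sets rose and 29.2% fell. CCL17 was at 7.70, 7.75, 8.36 and 8.04 with HGF and at 4.68, 4.28, 4.55 and 4.32 in control in 2D, a rise of 3.51 ± 0.24. On these arrays CCL17 was high where PTGS2 was high, and it started from a dim level in 2D control. CXCL16 fell by -0.83 ± 0.11, and CCL20 stood at 11.55 with HGF and 11.49 in control. Between untreated cultures all 7 were higher in 3D than in 2D, as PTGS2 was, where 23.6% of all probe sets were. The largest of these differences were 10.07 ± 0.25 for CCL2 and 8.02 ± 0.17 for CXCL8, both from a dim level in 2D. CXCL8, CXCL10, CCL2 and CCL7 reached log2 5 on no 2D array and passed the filter only through 3D arrays. The count of 7 higher in 3D is therefore no support for a response shared with PTGS2.

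The difference between PTGS2 and each chemokine was also taken array by array and compared between groups with exact two-sided permutation tests, 21 in all. With HGF against control in 3D, PTGS2 gained on each of the 7 chemokines. The gain was 9.43 ± 0.31 over CXCL8, 7.30 ± 0.24 over CCL2 and 1.95 ± 0.24 over CCL20. That over CCL20 was the smallest on the probe sets used, although the further probe set of CCL20 fell more. In every one of the 7 the arrays of both groups did not overlap, and adjusted exact p was 0.0286, the smallest that 4 against 4 arrays can give. The share of all probe sets that did not overlap when set against PTGS2 in this way was 84.1% in 3D, 99.9% for HGF in 2D and 99.8% for 3D against 2D control. Counts of 7 of 7 in each of the 3 comparisons are therefore near the background and are no result about chemokines as such. With 1 array left out the smallest exact p is 0.0571, so that no such test can pass.

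The inhibitors moved the chemokines the other way in 3D. Of the 7, U0126 raised 6 and PD-98059 raised 6 in HGF-treated 3D cells, where 25.4% and 26.6% of all probe sets rose. The medians were 3.02 with U0126 and 1.78 with PD-98059. CXCL8, CXCL10 and CCL7 passed the filter only through 3D control or 3D inhibitor arrays, so these counts and medians are no independent support for a rise. CXCL8 was at 10.75, 10.68 and 11.13 with HGF and U0126, and at 7.82, 8.47 and 8.97 with HGF and PD-98059, against at most 3.40 with HGF alone. CCL2 was at 13.19, 13.20 and 13.66 with U0126 and at 12.62, 12.77 and 12.85 with PD-98059, against at most 8.09 with HGF alone. CCL7 averaged 8.57 with U0126 and 8.39 with PD-98059, against 3.55. Averages in 3D control were 11.03 for CXCL8, 13.70 for CCL2 and 9.58 for CCL7. PTGS2 differed by less than 1 on the log2 scale from HGF alone with either inhibitor. CXCL10 differed most between inhibitors: it averaged 6.12 with U0126 and a dim 3.55 with PD-98059, a difference of 2.57 ± 0.16 (adjusted p = 1.82e-10). Its rise of 0.45 ± 0.15 with PD-98059 was within dim levels and was lost without PD-98059 replicate 2 (adjusted p = 0.291). The members that did not pass were CCL17 with U0126, at 0.37 ± 0.26, and CCL20 with PD-98059, at 0.01 ± 0.18. The rise of CCL20 with U0126, 0.54 ± 0.18, was lost without U0126 replicate 1 (adjusted p = 0.144). In 2D CCL17 fell with both inhibitors, by -3.24 ± 0.26 with U0126 and -2.92 ± 0.24 with PD-98059, and CCL2 rose with PD-98059 by 1.48 ± 0.25 within dim levels.

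**Figure D3:**
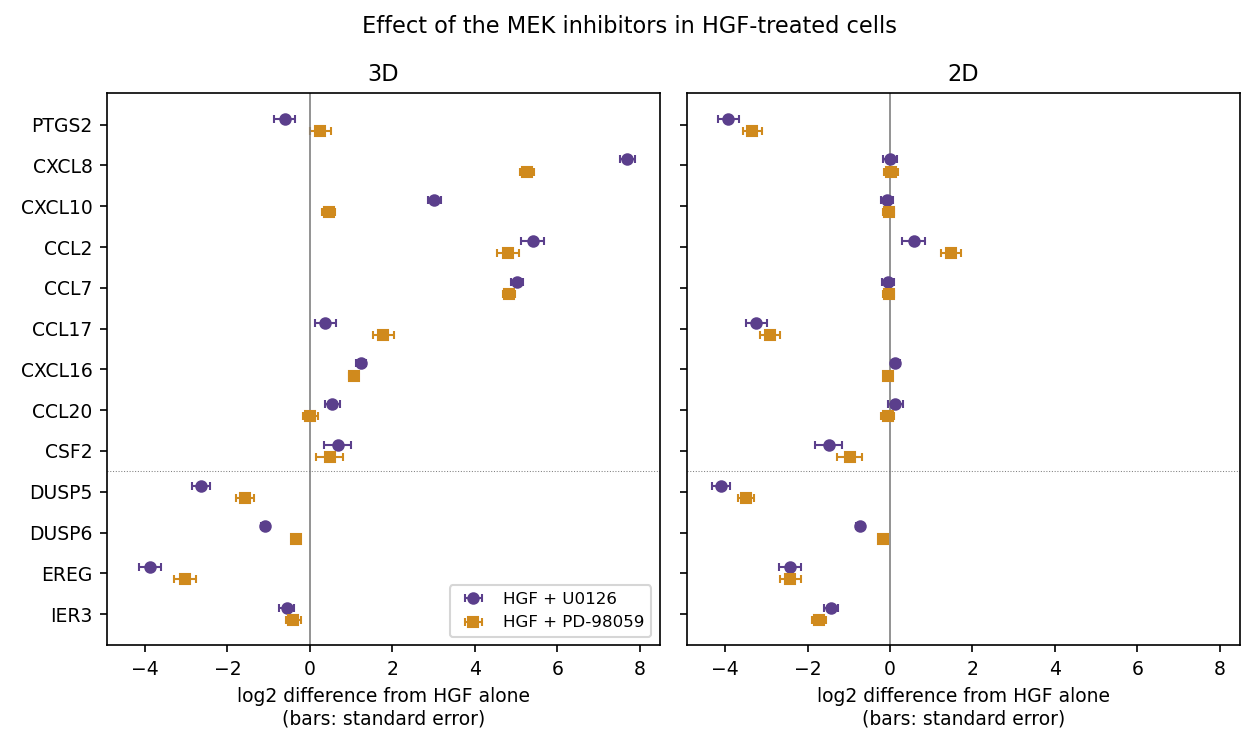
Log2 difference from HGF alone (x axis) with HGF and U0126 (purple circles) and HGF and PD-98059 (orange squares), in 3D (left) and 2D (right), with bars of ± 1 standard error from limma. Genes under the dotted line are from the ERK output list; PTGS2 lies at -0.61 and 0.25 in 3D and at -3.92 and -3.34 in 2D, whereas CXCL8 lies at 7.70 and 5.27 in 3D.

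Cytokines and other NF-kB targets were counted from lists in the same way. Of 18 cytokines listed 2 were tested, CSF2 and TNFSF10, and both fell with HGF in 3D, where 32.6% of all probe sets fell. CSF2, the granulocyte and macrophage growth factor, was at 8.52, 9.18, 8.59 and 8.48 with HGF and at 10.21, 10.21, 10.46 and 10.07 in control in 3D, a fall of -1.54 ± 0.31. In 2D CSF2 was at 5.77, 6.60, 6.13 and 6.47 with HGF and at 3.55, 3.53, 3.58 and 4.41 in control, a rise of 2.48 ± 0.31 from a dim level. CSF2 and CCL17 therefore moved with PTGS2 in 2D and against it in 3D. TNFSF10, the death ligand TRAIL, fell by -2.59 ± 0.19 in 3D, and its difference of -0.40 ± 0.19 in 2D did not pass.

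Of 22 NF-kB targets listed 11 were tested; with HGF in 3D 1 rose and 9 fell, with a median of -1.50, where 29.4% of all probe sets rose and 32.6% fell. In 2D 4 rose and 1 fell, with a median of 0.11, where 26.3% rose and 29.2% fell, so that the share that rose in 2D was not far from the background. BIRC3, an inhibitor of apoptosis, fell by -3.20 ± 0.15 in 3D and rose by 1.49 ± 0.15 in 2D. C3, the central complement component, fell in both, by -3.95 ± 0.20 in 3D to a dim level and by -3.08 ± 0.20 in 2D. SAA1, an acute-phase protein, fell by -2.56 ± 0.34 to a dim level in 3D and was dim in 2D with HGF and in control. C3 and SAA1, dim on average with HGF in 3D, may owe their pass of the filter to other groups. The count and median of NF-kB targets in 3D include them and are therefore no independent support for a fall. The 1 that rose in 3D was BIRC2, by 0.27 ± 0.08. ICAM1, an adhesion molecule for leukocytes, rose by 0.84 ± 0.15 in 2D, and its fall of -0.42 ± 0.15 in 3D was lost without control replicate 1 (adjusted p = 0.0532) or HGF replicate 4 (0.107) and with the RNA-quality index as a covariate (0.0539).

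Among the regulators of PTGS2 transcription and mRNA stability 14 of 33 listed were tested, and with HGF 2 rose and 3 fell in 3D, while 2 rose and 6 fell in 2D. The medians were 0.06 and -0.16. Over all probe sets 29.4% rose and 32.6% fell in 3D, and 26.3% rose and 29.2% fell in 2D, so that both counts in 3D were below the background. FOS, a component of AP-1, rose by 0.39 ± 0.09 in 3D and 0.78 ± 0.09 in 2D. JUN, its partner, rose by 1.53 ± 0.24 in 3D, and its difference of 0.42 ± 0.24 in 2D did not pass. EGR1, an early-response zinc finger factor, fell by -1.72 ± 0.27 in 2D, and in 3D its difference of -0.35 ± 0.27 did not pass, although it was -0.80 (adjusted p = 0.000263) without HGF replicate 1. All of FOS, JUN and EGR1 fell with both inhibitors in both cultures. FOS fell by -1.94 ± 0.10 with U0126 and -0.89 ± 0.10 with PD-98059 in 3D, and EGR1 by -1.47 ± 0.29 and -1.49 ± 0.29 to dim levels. CREM, a CREB-family factor, fell by -0.69 ± 0.11 in 2D, and its 3D difference of 0.06 ± 0.11 did not pass. The upstream stimulatory factors, which bind the E-box motif, were lower with HGF in 3D: USF2 fell by -0.55 ± 0.13, and USF1 fell by -0.47 ± 0.12, a call lost without 3D HGF replicates 1 and 4 (adjusted p = 0.0523). USF1 also fell in 2D, by -0.54 ± 0.12. ATF2, a CREB-family factor, had a fall of -0.50 ± 0.18 in 3D that was lost with only the compared groups in the model (adjusted p = 0.12) and without control replicate 3 (0.102) or HGF replicate 2 (0.0597) or 4 (0.103). The RNA-binding proteins TIA1 and TIAL1, of which TIA1 is known to restrain translation of PTGS2, moved in opposite directions in 2D: TIA1 fell by -0.58 ± 0.15 and TIAL1 rose by 0.62 ± 0.11.

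Upstream of PTGS2, PLA2G4A, the cytosolic phospholipase that frees arachidonic acid, rose with HGF in both cultures. It was at 12.16, 12.53, 12.50 and 12.31 with HGF and at 11.45, 11.60, 11.56 and 11.51 in control in 3D, a rise of 0.84 ± 0.09 (adjusted p = 3.69e-09). In 2D it was at 13.28, 13.25, 13.10 and 13.16 with HGF and at 11.88, 11.79, 11.73 and 11.77 in control, a rise of 1.40 ± 0.09 (adjusted p = 2.64e-13). Its other tested probe set changed by 0.74 in 3D and 1.62 in 2D. The inhibitors lowered PLA2G4A in 2D, by -1.80 ± 0.09 with U0126 and -1.46 ± 0.09 with PD-98059, to averages of 11.40 and 11.73, against 11.79 in 2D control. In 3D U0126 lowered it by -0.50 ± 0.09, while it was higher by 0.38 ± 0.09 with PD-98059. The latter call was lost with only the compared groups in the model (adjusted p = 0.0515). It was also lost without 3D HGF replicates 1 and 4 together, when the log2 difference was 0.24 (adjusted p = 0.0603).

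Of the 16 genes of arachidonate release 5 were tested; 3 rose and 1 fell with HGF in 3D, and 3 rose in 2D. Over all probe sets 29.4% rose and 32.6% fell in 3D, and 26.3% rose in 2D. PLA2G7, which hydrolyses platelet-activating factor, rose by 1.52 ± 0.15 in 3D and 2.29 ± 0.15 in 2D. DAGLB, a diacylglycerol lipase, rose by 0.31 ± 0.09 in 3D, a call lost with only the compared groups in the model (adjusted p = 0.0566), and its 2D difference of -0.15 ± 0.09 did not pass. PLA2G15, a lysosomal phospholipase, rose by 0.50 ± 0.15 in 2D, and its fall of -0.40 ± 0.15 in 3D was lost without control replicate 1 (0.0579) or HGF replicate 4 (0.16).

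Other synthases did not share the pattern of PTGS2. Of 12 listed genes of prostaglandin synthesis 11 had a probe set and 4 were tested; 1 rose and 1 fell with HGF in 3D, and 1 rose and 2 fell in 2D. With 29.4% and 32.6% of all probe sets called higher and lower in 3D, and 26.3% and 29.2% in 2D, such counts among 4 genes are near the background. PTGS1, the constitutive prostaglandin synthase, was dim on every array, with a highest level of 3.15. PTGES, the inducible prostaglandin E synthase that often acts with PTGS2, reached at most 5.58 and did not pass the filter. PTGES2, another prostaglandin E synthase, was at 7.39, 7.48, 7.45 and 6.91 with HGF and at 7.89, 8.15, 7.83 and 8.24 in control in 3D, a fall of -0.72 ± 0.16 (adjusted p = 0.000404). In 2D PTGES2 was at 7.84, 7.46, 8.03 and 7.75 with HGF and at 8.93, 8.83, 8.29 and 9.17 in control, a fall of -1.03 ± 0.16 (adjusted p = 5.6e-06). PTGES2 thus fell where PTGS2 rose.

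AKR1B1, aldose reductase, which can also make prostaglandin F2 alpha, rose about equally in both cultures. It was at 13.18, 13.36, 13.27 and 13.02 with HGF and at 11.50, 11.28, 11.44 and 11.41 in control in 3D, a rise of 1.80 ± 0.09. In 2D AKR1B1 was at 12.87, 12.87, 12.84 and 12.77 with HGF and at 11.09, 11.21, 11.10 and 11.20 in control, a rise of 1.69 ± 0.09. Its HGF effect in 3D minus that in 2D was 0.11 ± 0.13 and did not pass. U0126 lowered AKR1B1 by -1.30 ± 0.10 in 3D and -1.29 ± 0.10 in 2D, and PD-98059 by -0.38 ± 0.10 and -1.02 ± 0.09. TBXAS1, thromboxane synthase, averaged a dim 3.14 with HGF and 5.70 in control in 2D, a fall of -2.57 ± 0.17, and was dim in every 3D group. TBXAS1 reached log2 5 only on 2D control arrays and passed the filter only through these. Its fall, which the count of synthesis genes that fell in 2D includes, is therefore no independent support. PTGES3, a co-chaperone with prostaglandin E synthase activity, had differences of -0.33 ± 0.29 in 3D and -0.10 ± 0.29 in 2D that did not pass.

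**Figure D4:**
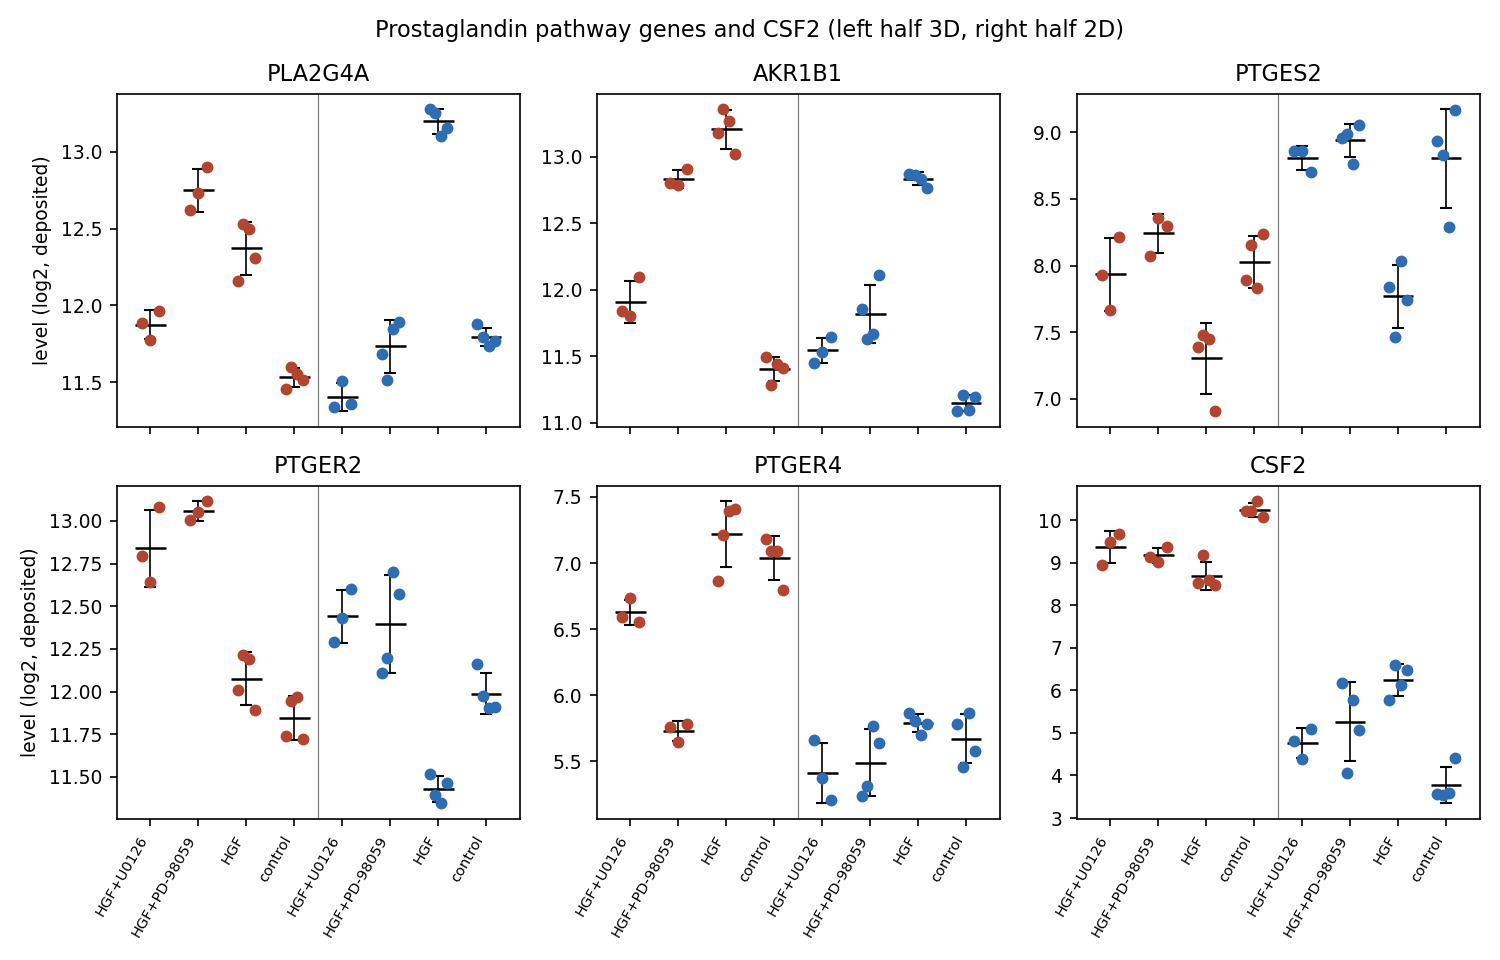
Level (log2, deposited values, y axis of each panel on its own scale) of 5 prostaglandin pathway genes and CSF2 on each of the 29 arrays, with 3D in red on the left and 2D in blue on the right of each panel, group means as horizontal bars and ± SD as error bars. PLA2G4A and AKR1B1 are higher with HGF than in control in both cultures, PTGES2 is lower, and CSF2 is lower with HGF in 3D and higher in 2D.

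Downstream, the receptors for prostaglandin E2 were the 2 of 9 listed prostanoid receptors that were tested. PTGER2, the EP2 receptor, stood at 12.01, 12.21, 12.19 and 11.89 with HGF and at 11.74, 11.95, 11.97 and 11.72 in control in 3D, a difference of 0.23 ± 0.11 that did not pass (adjusted p = 0.0823; 0.0396 without HGF replicate 4). In 2D PTGER2 was at 11.52, 11.40, 11.34 and 11.46 with HGF and at 12.16, 11.98, 11.90 and 11.91 in control, a fall of -0.56 ± 0.11. Both inhibitors raised it in both cultures, by 0.76 ± 0.12 with U0126 and 0.98 ± 0.12 with PD-98059 in 3D, and by 1.01 ± 0.12 and 0.97 ± 0.11 in 2D. PTGER4, the EP4 receptor, had HGF differences of 0.18 ± 0.14 in 3D and 0.12 ± 0.14 in 2D that did not pass. In 3D PTGER4 was at 6.59, 6.74 and 6.55 with HGF and U0126 and at 5.76, 5.65 and 5.78 with HGF and PD-98059, against 6.87, 7.21, 7.39 and 7.41 with HGF alone. It fell by -0.59 ± 0.15 with U0126 and -1.49 ± 0.15 with PD-98059, and the inhibitors differed by 0.90 ± 0.16 (adjusted p = 0.000419).

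Genes of prostaglandin export and breakdown, and of the lipoxygenase branch, which draws on the same arachidonic acid, were examined as well. ABCC4, an exporter, had HGF differences of 1.17 ± 0.53 in 3D and -0.85 ± 0.53 in 2D that did not pass. Its HGF effect in 3D minus that in 2D was 2.02 ± 0.75 (adjusted p = 0.0296 in limma), with overlapping arrays in each culture. HPGD, the main enzyme of prostaglandin breakdown, reached at most 4.27 and was not tested. PTGR2, a reductase of prostaglandin metabolites, fell by -0.65 ± 0.11 with HGF in 2D, and its 3D difference of 0.18 ± 0.11 did not pass. PTGR1, a related reductase, fell by -0.49 ± 0.12 in 3D, and its rise of 0.30 ± 0.12 in 2D was lost without the filter (adjusted p = 0.0815) and in 5 of the 8 fits that left out 1 array, namely control replicates 2, 3 and 4 and HGF replicates 1 and 2. Of 10 genes of the lipoxygenase branch 4 were tested; 3 fell with HGF in 3D and 1 in 2D, where 32.6% and 29.2% of all probe sets fell. EPHX2, the soluble epoxide hydrolase, fell by -2.50 ± 0.14 in 3D, and its 2D difference of -0.29 ± 0.14 did not pass. LTA4H, which makes leukotriene B4, fell by -0.68 ± 0.10 in 3D and -0.39 ± 0.10 in 2D. MGST2, which can make leukotriene C4, fell by -0.60 ± 0.15 in 3D, and its 2D difference of -0.21 ± 0.15 did not pass.

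The genes whose profile was most like that of PTGS2 were taken as the 10 with the highest Pearson r over the 8 group means, among 1385 genes whose means span at least 2 on the log2 scale. They were FABP3 (r = 0.987), POLE2 (0.985), TUBB2A (0.968), HMGCS1 (0.967), IER3 (0.967), CENPP (0.966), KIF23 (0.963), FDPS (0.963), ATP10A (0.951) and NDNF (0.948). The next gene had r = 0.948 as well, and 59 of the 1385 exceeded 0.9, so the list has no natural end. These r values describe 8 points that share their arrays and carry no test. FABP3, a fatty-acid binding protein, was also the most alike over the 29 single arrays, at r = 0.977. FABP3 rose with HGF by 1.45 ± 0.16 in 3D and 4.12 ± 0.16 in 2D, and was lower with U0126 by -1.04 ± 0.18 in 3D and -2.62 ± 0.18 in 2D. IER3, an early-response gene that was also on the ERK output list, rose by 1.03 ± 0.17 in 3D and 2.22 ± 0.17 in 2D.

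HMGCS1 and FDPS, enzymes of sterol synthesis, rose with HGF in 2D by 1.78 ± 0.16 and 2.36 ± 0.10. POLE2, a DNA polymerase subunit, and KIF23, a kinesin of cytokinesis, rose in 2D by 1.71 ± 0.14 and 2.85 ± 0.12 and in 3D by 0.72 ± 0.14 and 1.07 ± 0.12. In all 10 the HGF effect was lower in 3D than in 2D by test, the largest such difference being -2.67 ± 0.23 for FABP3, against -4.21 ± 0.33 for PTGS2. The choice of the genes by this profile fixes that direction. The group means of the 10 spanned between 2.08 for CENPP and 5.42 for NDNF, against 6.55 for PTGS2. By the root mean square of the centred difference, which counts size as well as shape, INHBA was closest, at 0.748, a gene named only for that value. Over the same 8 means the chemokines had r between -0.03 for CXCL16 and 0.83 for CCL17, with 0.47 for CXCL8 and 0.61 for CCL2.

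**Figure D5:**
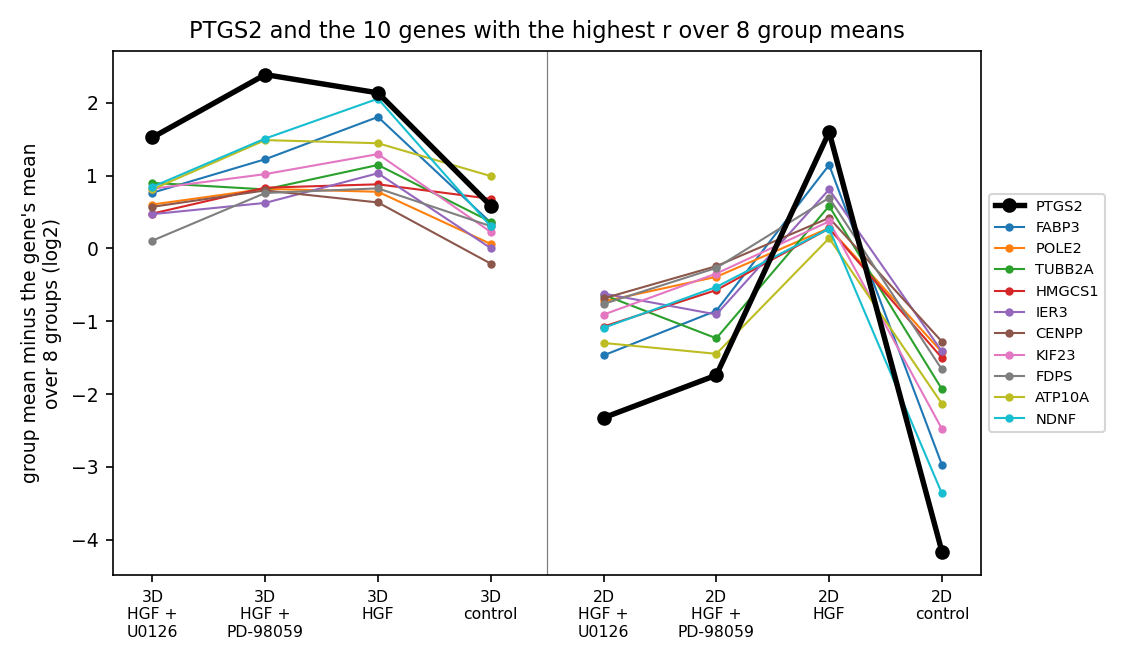
Group mean minus the gene's own mean over the 8 groups (log2, y axis) for PTGS2 (thick black) and the 10 genes with the highest r, in 3D (left) and 2D (right). PTGS2 has the widest span, 6.55, and all 11 curves are lowest in 2D control.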

How the data were processed

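Total RNA was isolated with a Qiagen RNeasy kit and labelled with biotin, per the labels' protocols. The authors deposited log2 values per probe set; GCRMA, MAS5, Affymetrix Expression Console 1.1 and Partek 6.6 are named in the submitters' processing notes, with no role or order. These values were used without further normalization. How multiple probes were summarised can compress low levels, and no detection calls were used here. Of 42924 probe sets that are no control (111 controls), those at log2 5 or above in at least 3 of 29 arrays were tested, 16571 in all. Gene symbols are those of the platform annotation: 29254 probe sets have 1 symbol, 439 several and 13231 none. For genes with several probe sets the one with the highest mean was used.

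Groups follow the labels. limma 3.58.1 in R 4.3.3 was fitted to 8 group means over all arrays, with eBayes and a trend, and two-sided p-values got a Benjamini-Hochberg adjustment over all tested probe sets, separately in each of 19 comparisons. PTGS2 minus each chemokine was compared with exact permutation tests. The model was checked on simulated data. Named genes were 11 always named (such as CXCL8, CCL2 and PTGES) and the 10 most alike. Up to 3 largest passing changes per direction from each list for HGF were named too. PTGES3, INHBA, ABCC4, PHLDA1, CCND1 and MYC were added after their values were seen. The members and lists were chosen with earlier results of these data known. Same-numbered arrays did not deviate together: every pair exceeded a correlation of 0.1 in 1 of 16 comparisons. Alternatives were other filters, no trend, fewer arrays, renormalization, array weights, blocks and an RNA-quality covariate. Genome positions and sequences are not used here.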

Additional observations from a re-analysis of the deposited data

Results flagged for a closer look

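For PTGS2 the effects of HGF and of both inhibitors differed between 3D and 2D by a test of the difference itself in limma. The HGF effect in 3D minus that in 2D was -4.21 ± 0.33, and the corresponding differences were 3.31 ± 0.36 for U0126 and 3.59 ± 0.34 for PD-98059. CCL17 had differences of the same signs, at -4.92, 3.61 and 4.70, and so did CSF2, at -4.02, 2.16 and 1.46. For PLA2G4A they were smaller, at -0.56, 1.30 and 1.84.

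For 4 chemokines the 2D levels were dim, so the difference between cultures carries the 3D change. CXCL8 differed by -7.86 for HGF, 7.70 for U0126 and 5.24 for PD-98059, CCL2 by -5.25, 4.83 and 3.32, and CCL7 by -6.05, 5.06 and 4.87. CXCL10 differed by -5.84 for HGF and 3.09 for U0126. CXCL16, which was well above log2 5 in all groups, differed by -0.66, 1.11 and 1.11. The largest adjusted p among these differences was 0.0137, for PD-98059 on CSF2.

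Single arrays stood apart from the other 3 of their group in 4 of 50 groups of 4 examined over 10 genes, and chance gives about 1 in 20. CXCL8 was at 3.40 on 3D HGF replicate 1, against 3.05 to 3.09 on the others, and CCL2 was at 2.90 on 2D HGF replicate 3, against 3.18 to 3.22, all dim levels. CSF2 was at 9.18 on 3D HGF replicate 2, against 8.48 to 8.59, and at 4.41 on 2D control replicate 4, against 3.53 to 3.58.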

How the results depend on the processing

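Of 19 comparisons of PTGS2, 16 kept their side of the threshold under every alternative run and with each array left out, and all of these but PD-98059 against HGF in 3D kept their direction. That difference, which did not pass, turned to -0.050 without 3D HGF replicates 1 and 4, against 0.25. The rise with HGF in 3D ran from 1.43 to 1.73 with 1 array left out. The other 3 were small differences in or with 3D, which kept their direction. Without the filter PTGS2 lost its calls at 0.54 for 3D against 2D with HGF, -0.61 for U0126 against HGF in 3D and -0.86 for U0126 against PD-98059 in 3D. The cause was not tested. U0126 against HGF in 3D (-0.61) also lost its call without the trend (adjusted p = 0.0502) and with only the compared groups. After a further quantile normalization the PTGS2 values were -0.49 and -0.74 for the comparisons of U0126 with HGF and with PD-98059 in 3D. After median centring the 3 values were 0.46, -0.56 and -0.85. With the replicate number as a block U0126 against HGF in 3D was -0.55, and with the description numbers as a block the 3 were 0.54, -0.62 and -0.86; the numbers do not pair these arrays, and the title numbers as a block changed no other PTGS2 call. With 1 array left out the PTGS2 values ran from 0.42 to 0.71, from -0.79 to -0.45 and from -0.96 to -0.70. The count of chemokines that PTGS2 differed from, 7 of 7, was 0 with any array left out and 0 without 3D HGF replicates 1 and 4, because those designs cannot reach the threshold. For the 51 named genes, 7531 of 7787 checks kept the call, 145 lost it, 111 gained it and 0 turned the direction of a called value; 89 of the 7531 changed sign with neither value called. Without the filter the count of probe sets higher in 3D than in 2D with HGF was 17408 of 42924, against 4791 of 16571 with it. The other PTGS2 probe sets planned as an alternative could not be run, since PTGS2 has 1.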
